A study of Homo sapiens with 8 samples.

Results

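The Krüppel-like factor (KLF) genes described here are KLF2, KLF3, KLF4, KLF5, KLF6, KLF7, KLF9, KLF10, KLF11 and KLF13. They are 10 of the 26364 genes in the count file, and all 10 were among the 14201 genes with enough reads to be tested. The 10 genes were selected by symbol with results of these same libraries in view, so their values are given as a description and no p-value is attached to them. RNA was sequenced from LN229, a human glioblastoma cell line, in 8 libraries forming 4 groups of 2. Surv-GFP (clone D6) carries wild-type Survivin (BIRC5) fused to eGFP, and SurvNESmut-GFP (clone L2) carries Survivin with a mutated nuclear export sequence fused to the same tag. Both came from transfection with a pcDNA3.1 plasmid and G418 selection, and each line is 1 clone, so the form of Survivin and the clone cannot be told apart. Cells of each clone were left without drug or were kept in 50 µM temozolomide (TMZ), the methylating agent of glioma therapy, for 48 h. The libraries of a group carry the letters a and b. The paper describes its transcriptome data as 2 independent biological replicates, each in technical duplicates, and the labels do not say which the letters are. The letters may thus stand for separate cultures or for technical repeats, so every error and p-value measures only the spread between letters. The fit pools that spread over the 4 groups and across genes, so it is not that of the groups compared alone.

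KLF proteins bind GC-rich and CACCC-type DNA through zinc fingers at their C-terminal end, and they differ in the N-terminal part that recruits partner proteins. KLF2, KLF4, KLF5, KLF6 and KLF7 are known mainly as activators that bind acetyltransferases, KLF3 recruits the corepressor CtBP, and KLF9, KLF10, KLF11 and KLF13 recruit the corepressor SIN3A. Several of the genes are switched on quickly by growth factors, stress or DNA damage, and in glioma some have been studied as regulators of growth and of the stem-like state.

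The start regions of KLF4, KLF5 and KLF9 are shown because, of the 10 genes, KLF4 and KLF5 had the largest rises and KLF9 the largest fall with TMZ. The sequences are the 250 bases before the start in RefSeq's GRCh38.p14 annotation, 5′ to 3′ on the gene's strand. Capitals mark matches, on either strand, to GGGCGG for the GC box, CCACCC as the core bound by many KLF proteins, CCAAT as the site of NF-Y, TATAAA as the TATA box, TGANTCA for an AP-1 site, TGACGTCA for a CRE or CACGTG for an E-box. No motif contains another, and overlapping or adjoining matches run together.
KLF4, minus strand, chr9:107489770-107490019: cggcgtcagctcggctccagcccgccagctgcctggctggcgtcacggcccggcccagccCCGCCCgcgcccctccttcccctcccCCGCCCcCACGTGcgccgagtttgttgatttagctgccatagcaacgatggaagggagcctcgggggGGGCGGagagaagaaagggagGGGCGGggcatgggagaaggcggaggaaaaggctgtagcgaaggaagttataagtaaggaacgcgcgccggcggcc
KLF5, first start, plus strand, chr13:73054726-73054975: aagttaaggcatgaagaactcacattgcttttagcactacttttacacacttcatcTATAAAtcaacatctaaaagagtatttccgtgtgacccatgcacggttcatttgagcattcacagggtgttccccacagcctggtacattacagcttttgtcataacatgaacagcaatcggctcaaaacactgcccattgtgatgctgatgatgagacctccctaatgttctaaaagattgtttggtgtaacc
KLF5, second start, plus strand, chr13:73058755-73059004: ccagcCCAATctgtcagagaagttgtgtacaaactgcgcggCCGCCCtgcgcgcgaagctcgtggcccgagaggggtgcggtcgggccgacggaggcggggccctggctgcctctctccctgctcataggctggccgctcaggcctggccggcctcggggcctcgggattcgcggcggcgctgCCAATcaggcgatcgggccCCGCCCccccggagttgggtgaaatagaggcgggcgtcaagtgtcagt
KLF9, minus strand, chr9:70414658-70414907: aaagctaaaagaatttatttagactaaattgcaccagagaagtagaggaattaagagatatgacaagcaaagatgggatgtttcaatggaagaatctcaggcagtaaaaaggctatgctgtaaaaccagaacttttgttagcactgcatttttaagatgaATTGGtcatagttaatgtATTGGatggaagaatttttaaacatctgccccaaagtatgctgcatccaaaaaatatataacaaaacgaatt

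The KLF4 region was 69.2% G and C and held 4 GC boxes and 1 E-box. KLF5 had starts of unlike composition. The region of the first was 40.8% G and C with 1 TATAAA and no GC box, and that of the second was 70.8% G and C with 2 GC boxes and 2 CCAAT matches. The KLF9 region was 32.4% G and C and held 2 CCAAT matches. Entries were found for 8 of the 10 genes, with 13 start regions, and not for KLF3 and KLF10. GC boxes stood in 8 of the 13 regions, against 42.6% of the 35116 human regions of the same length. CCAAT stood in 6, against 32% of all regions. An E-box stood in 4, against 6.34% of all regions. CCACCC stood in 2 (31.3% of all regions), TATAAA in 1 (10.7%), the CRE in 1 region of KLF11 (1.65%) and the AP-1 site in 0 (6.57%). A match is a run of letters and was not tested as a binding site.

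The libraries held 15826923 to 18861603 reads on genes. Levels are given in CPM, counts scaled to a common library size with TMM factors, and log2 fold changes with their standard errors come from edgeR's quasi-likelihood fit to all 8 libraries. The transgene's gene BIRC5 had a mean level of 1130 CPM in untreated and 1980 CPM in TMZ-exposed Surv-GFP cells, and of 411 and 258 CPM in SurvNESmut-GFP cells, with no separation of transgene and endogenous reads. The amount of BIRC5 RNA thus differed between the clones along with the form of Survivin, and amount, form and clone cannot be told apart. Of 9 markers fixed for a glioma line 7 had enough reads to be tested, and the summed level of 5280 to 7540 CPM was mostly VIM and TNC. CHI3L1 had 0 counts in all Surv-GFP libraries and at most 5 in the others, and GFAP at most 17 counts in any library. S100B had means of 777 and 263 CPM in Surv-GFP and 40.6 and 16.8 CPM in SurvNESmut-GFP cells (untreated, then TMZ), and OLIG2 of 34 and 17.3 and of 6.94 and 6.81 CPM. The 3 leukocyte markers summed to between 0 and 0.252 CPM and the 3 endothelial ones to between 0.428 and 0.867 CPM. Neuronal markers summed to between 14.3 and 169 CPM, mostly MAP2. Epithelial markers summed to between 129 and 270 CPM, mostly KRT18, while EPCAM and CDH1 had at most 4 counts in a library and the neuronal marker RBFOX3 at most 1. These glioma markers and the sums of the neuronal and epithelial lists differed between groups, and their part in the results below was not tested. The letters of SurvNESmut-GFP with TMZ stood farthest apart, with a chi-square per degree of freedom of 5.49 over genes against 2.14 to 2.58 in the other groups. As the fit pools the spread over groups, its standard errors do not fully reflect how far apart the letters of this group were.

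TMZ raised KLF4 in both clones and KLF5 in Surv-GFP cells, lowered KLF9 in both, and left no difference past the threshold in KLF6 and KLF2. By an adjusted p of 0.05 over all tested genes, 5 of the 10 genes were higher and 3 lower with TMZ in Surv-GFP cells, where 30.1% of all tested genes were called higher and 28.9% lower. In SurvNESmut-GFP cells 3 were higher and 2 lower, where 18.6% of all tested genes were called higher and 19.1% lower. TMZ and untreated libraries did not overlap for 8 of the 10 genes in Surv-GFP, as for 79.6% of all tested genes. In SurvNESmut-GFP they did not overlap for 7 of the 10, as for 68% of all tested genes. The genes were chosen with these comparisons known, so nothing is read from their counts against these shares. The same holds for the medians that follow, set beside those of all tested genes. Over the 10 genes the median TMZ effect on the log2 scale was 0.22 in Surv-GFP, against -0.03 for the SurvNESmut-GFP clone, and median absolute values of 0.43 and 0.26, against 0.32 and 0.2 over all tested genes, whose median was 0 in both clones. In cell populations such as these, fewer cells expressing a gene and less RNA per cell cannot be told apart.

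**Figure D1:**
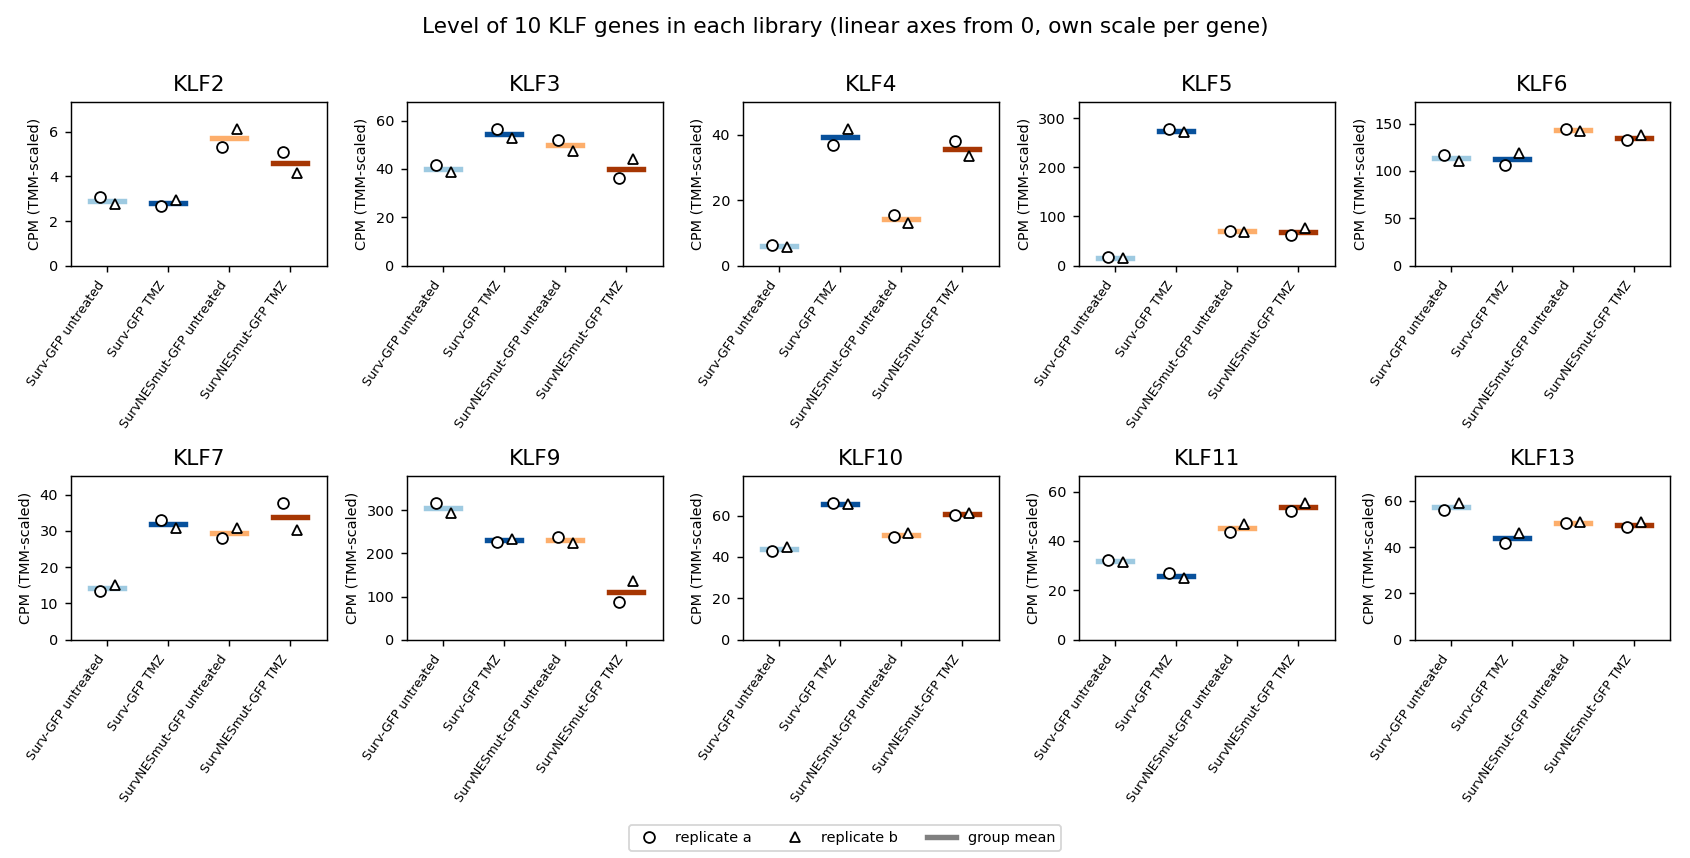
Level of each KLF gene in CPM (vertical axes, linear and from 0, own scale per gene) in the 4 groups (horizontal axis). Circles are replicate a, triangles replicate b and bars the group mean. KLF5 stood at 271 and 277 CPM in Surv-GFP cells with TMZ and below 80 CPM in all other libraries, and KLF9 was lowest in SurvNESmut-GFP cells with TMZ.

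Among the activators, KLF5, which promotes proliferation in epithelial progenitors, had the widest range. It was at 16.9 and 16.2 CPM in untreated Surv-GFP cells and at 277 and 271 CPM with TMZ. In SurvNESmut-GFP cells it was at 71.1 and 69.1 CPM untreated and at 61.5 and 75.8 CPM with TMZ. Thus the Surv-GFP libraries lay far apart by treatment, and those of SurvNESmut-GFP overlapped at a level between the Surv-GFP groups. The log2 fold change was 4.05 ± 0.08 in Surv-GFP, a 16.5-fold rise and the 47th highest of 14201 genes. In SurvNESmut-GFP it was -0.03 ± 0.07, with a 95% interval from -0.19 to 0.12. Without TMZ replicate b of SurvNESmut-GFP it was -0.18 and passed the threshold.

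KLF4, a reprogramming factor that also takes part in growth arrest after DNA damage, was at 6.45 and 5.57 CPM in untreated and 36.8 and 41.7 CPM in TMZ-exposed cells of Surv-GFP. The levels of SurvNESmut-GFP were 15.5 and 12.9 CPM untreated and 38 and 33.6 CPM with TMZ. Every TMZ library was above every untreated one, in both clones, and the TMZ libraries of the clones overlapped. On the log2 scale TMZ raised it by 2.70 ± 0.12 in Surv-GFP and by 1.34 ± 0.10 in SurvNESmut-GFP, the 139th and 252nd highest of all tested genes. KLF4 was the member with the largest rise in SurvNESmut-GFP cells.

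KLF7, known for its part in neurite outgrowth, was at 13.4 and 15.2 CPM in untreated Surv-GFP cells and at 33.1 and 30.8 CPM with TMZ. In SurvNESmut-GFP cells it was already at 28.1 and 30.7 CPM untreated, and at 37.6 and 30.2 CPM with TMZ. The SurvNESmut-GFP groups overlapped and those of Surv-GFP did not. The TMZ effect on the log2 scale was 1.16 ± 0.11 for Surv-GFP, against 0.21 ± 0.10 for SurvNESmut-GFP. The second value was not called over all genes, and was 0.36 and past the threshold without TMZ replicate b of that clone.

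KLF6, an immediate early gene and tumour suppressor, had the narrowest span of group means, 0.35 on the log2 scale. It was at 117 and 111 CPM untreated and 106 and 119 CPM with TMZ in Surv-GFP, and at 144 and 142 CPM and then 133 and 138 CPM in SurvNESmut-GFP. The TMZ effects were -0.02 ± 0.06 and -0.08 ± 0.06 on the log2 scale. KLF2, which keeps endothelial and T cells quiescent, had the lowest level and the widest errors. Its libraries held 3.09 and 2.76 CPM untreated and 2.67 and 2.93 CPM with TMZ in Surv-GFP, and 5.31 and 6.11 CPM and then 5.09 and 4.16 CPM in SurvNESmut-GFP. Its TMZ effects of -0.06 ± 0.21 and -0.30 ± 0.17 did not pass the threshold.

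KLF3, the CtBP-binding repressor, moved in opposite directions in the clones. It was at 41.5 and 38.6 CPM in untreated Surv-GFP cells and at 56.4 and 52.7 CPM with TMZ. In SurvNESmut-GFP cells it was at 52.1 and 47.4 CPM untreated and at 36.1 and 44.3 CPM with TMZ. TMZ and untreated libraries did not overlap in either clone, with TMZ above in Surv-GFP and below in SurvNESmut-GFP. The log2 fold changes were 0.45 ± 0.08 and -0.31 ± 0.09. The fall in SurvNESmut-GFP was no longer called without untreated replicate a (-0.24) or TMZ replicate a (-0.17). The antisense transcript KLF3-AS1 shares 266 exon bases with KLF3 and had at most 36 counts in a library. Its log2 fold change in Surv-GFP was -1.24 ± 0.42 (edgeR adjusted p = 0.017), a call lost with DESeq2 (-1.28) and without untreated replicate a (-0.62) or TMZ replicate b (-0.88) of Surv-GFP. Without strand information, reads in the shared bases cannot be assigned to one of them.

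Of the SIN3A-binding members, KLF9, a glucocorticoid- and thyroid hormone-induced gene, fell in both clones. It was at 316 and 294 CPM in untreated Surv-GFP cells and at 227 and 233 CPM with TMZ. In SurvNESmut-GFP cells it was at 237 and 225 CPM untreated and at 86.7 and 136 CPM with TMZ. The groups did not overlap within a clone, and the libraries of SurvNESmut-GFP with TMZ were below all others but were 0.65 apart on the log2 scale, the widest gap of any member. The log2 fold change was -0.41 ± 0.12 in Surv-GFP, where the call was lost with DESeq2 and without untreated replicate a (-0.35). It was -1.06 ± 0.12 in SurvNESmut-GFP, the 304th lowest of all tested genes, and lay between -1.41 and -0.77 when a library was left out.

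KLF10, first described as a TGF-beta inducible early gene, was at 43 and 44.9 CPM untreated and 65.9 and 65.4 CPM with TMZ in Surv-GFP. In SurvNESmut-GFP it was at 49.8 and 51.7 CPM and then at 60.1 and 61.3 CPM. It was higher in every TMZ library of either clone, by 0.58 ± 0.06 and 0.26 ± 0.06 on the log2 scale. KLF11, its closest relative in the TGF-beta inducible group, fell in Surv-GFP from 32.4 and 31.4 CPM to 26.9 and 24.9 CPM and rose in SurvNESmut-GFP from 43.8 and 46.9 CPM to 52.3 and 55.2 CPM. The libraries did not overlap in either clone. The TMZ effects on KLF11 were -0.30 ± 0.07 and 0.25 ± 0.07, and the second lost its call without untreated replicate a of SurvNESmut-GFP (0.19). KLF11 shares 416 exon bases with an antisense gene. KLF13, an activator of CCL5 in T cells, was at 56.1 and 58.9 CPM untreated and 41.8 and 46.3 CPM with TMZ in Surv-GFP. In SurvNESmut-GFP it was at 50.2 and 50.9 CPM and then at 48.6 and 50.9 CPM. KLF13 therefore fell in Surv-GFP, by 0.39 on the log2 scale (SE 0.06), while in SurvNESmut-GFP the groups met at 50.9 CPM with a difference of -0.03 ± 0.06.

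**Figure D2:**
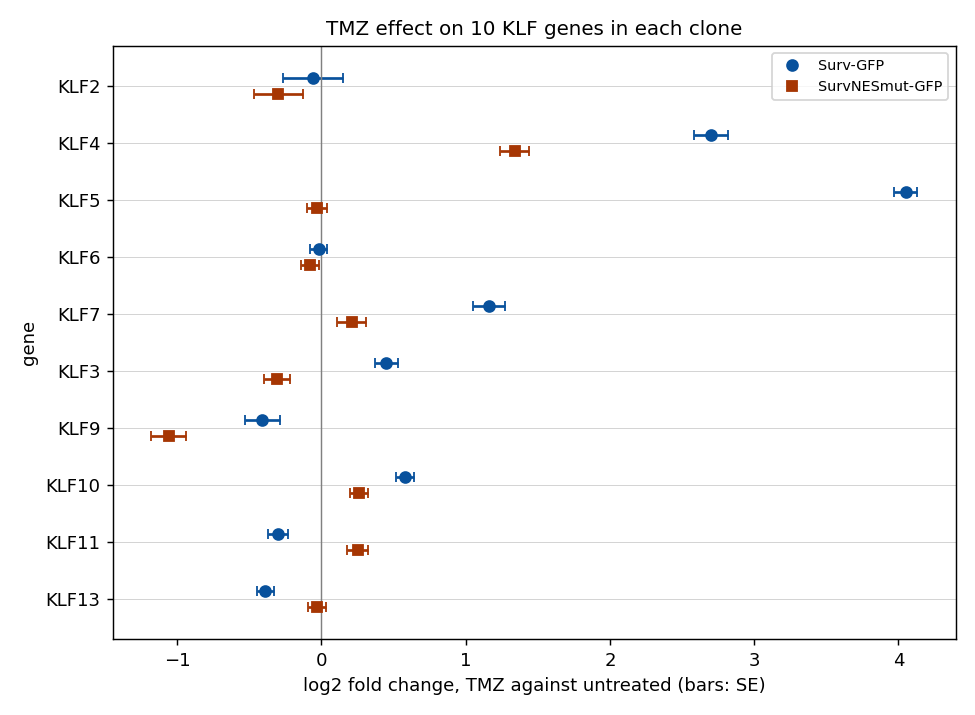
Log2 fold change of TMZ against untreated cells (horizontal axis) for each KLF gene (vertical axis), with circles for Surv-GFP, squares for SurvNESmut-GFP and bars for the standard error. KLF5 lay at 4.05 in Surv-GFP and -0.03 in SurvNESmut-GFP, while KLF3 and KLF11 had opposite signs in the clones.

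The TMZ effect was then compared between the clones as a difference of differences, SurvNESmut-GFP minus Surv-GFP. Of the 10 genes, 6 had a lower and 2 a higher effect in SurvNESmut-GFP at the threshold, where 20.2% of all tested genes were called lower and 16.6% higher. The comparison uses the same libraries as the effects above and is no separate support for them. KLF5 differed most, by -4.08 ± 0.11 on the log2 scale, the 22nd lowest of 14201 genes. KLF4 followed with -1.37 ± 0.17, KLF7 with -0.95 ± 0.15, KLF3 with -0.76 ± 0.12, KLF9 with -0.65 ± 0.17 and KLF10 with -0.32 ± 0.08. The effect on KLF11 was higher in SurvNESmut-GFP by 0.54 ± 0.10 and that on KLF13 by 0.36 ± 0.09. KLF2 (-0.24 ± 0.27) and KLF6 (-0.06 ± 0.08) were not called. For KLF9, DESeq2 gave -0.63, not past the threshold, and the value was -0.36 without TMZ replicate a of SurvNESmut-GFP and -1 without replicate b.

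Without drug the clones already differed in all 10 genes. At the threshold 8 were higher and 2 lower in SurvNESmut-GFP, where 34.7% of all tested genes were called higher and 29.4% lower. All 10 had groups that did not overlap, as did 83.1% of all tested genes. KLF5 was higher by 2.08 ± 0.09, KLF4 by 1.24 ± 0.14, KLF7 by 1.04 ± 0.11 and KLF2 by 0.96 ± 0.18 on the log2 scale. KLF11 was higher by 0.51 ± 0.07, KLF6 by 0.33 ± 0.06, KLF3 by 0.31 ± 0.08 and KLF10 by 0.21 ± 0.06. KLF9 was lower by a log2 fold change of -0.40 ± 0.12 and KLF13 by one of -0.19 ± 0.06. The call of KLF9 was lost with DESeq2 (-0.43), without untreated replicate a of Surv-GFP (-0.35) and without untreated replicate b of SurvNESmut-GFP (-0.36). That of KLF13 was lost without untreated replicate b of Surv-GFP or either untreated library of SurvNESmut-GFP, with values from -0.22 to -0.15 when a library was left out. KLF10 was no longer called with DESeq2 or without untreated replicate a of Surv-GFP (both 0.18), nor KLF3 without untreated replicate a of SurvNESmut-GFP (0.25).

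With TMZ the order between the clones was partly turned. At the threshold 4 genes were higher and 3 lower in SurvNESmut-GFP, where 34.5% of all tested genes were called higher and 34.7% lower. KLF5 passed from 2.08 higher to a log2 fold change of -2.00 ± 0.07, and KLF3 to -0.44 ± 0.08. KLF9 was lower still, at -1.05 ± 0.12, and KLF11 was higher by 1.05 ± 0.07. KLF2 stayed higher by 0.73 ± 0.19 and KLF6 by 0.27 ± 0.06. KLF13 had a value of 0.17 ± 0.07. KLF4 (-0.13 ± 0.09), KLF7 (0.09 ± 0.10) and KLF10 (-0.11 ± 0.06) were not called. The calls of KLF2, KLF6 and KLF13 were lost when single libraries were left out. KLF2 had a value of 0.53 and no call without TMZ replicate a of SurvNESmut-GFP, KLF6 of 0.15 and no call without TMZ replicate a of Surv-GFP, and KLF13 lost its call in 6 of 16 alternatives, with values from 0.07 to 0.25. KLF4 was called at -0.26 without TMZ replicate a of SurvNESmut-GFP, and KLF10 at -0.16 without replicate b. These comparisons share their libraries with the TMZ effects, so their values are set beside each other without a measure of likeness.

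**Figure D3:**
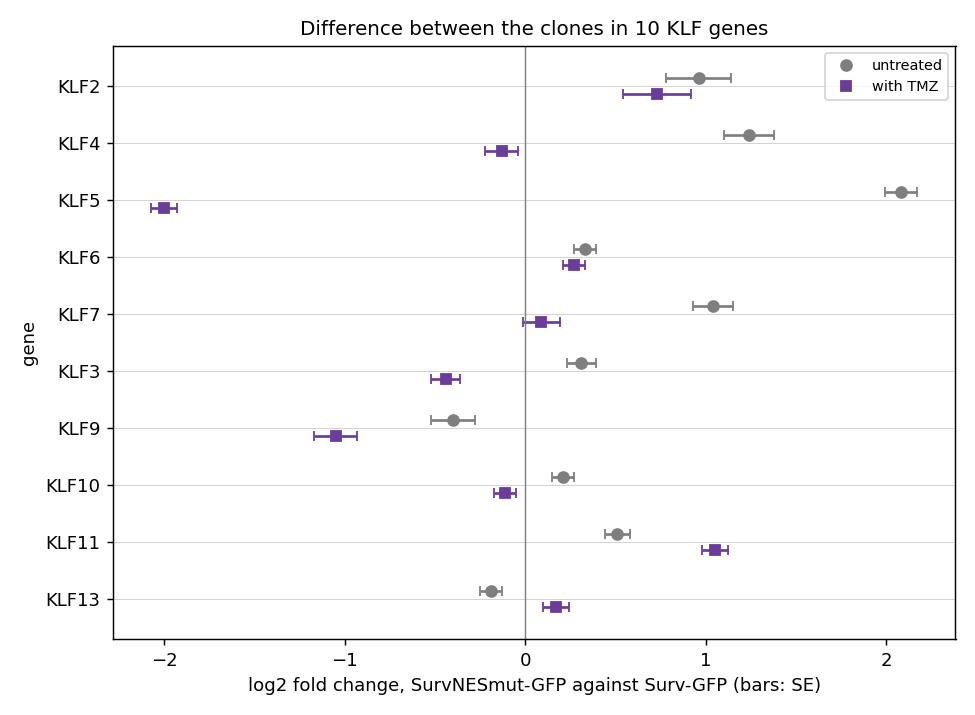
Log2 fold change of SurvNESmut-GFP against Surv-GFP (horizontal axis) for each KLF gene (vertical axis), with circles for untreated cells, squares for cells with TMZ and bars for the standard error. KLF5 passed from 2.08 to -2.00 and KLF9 and KLF11 moved further from 0, while KLF4 and KLF7 came to lie near 0.

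To set levels of different genes beside each other, CPM were divided by the length of each gene's merged exons in GENCODE 29, in kilobases. Merged exons join all annotated transcripts of a gene, and the transcripts present in these cells may be shorter. Places and shares below depend on that choice of length. In untreated Surv-GFP cells KLF9 led with 59 CPM per kb, 50.5% of the summed level of the 10 genes, followed by KLF6 with 18.6 and KLF10 with 11 CPM per kb. KLF3 and KLF13 overlapped between letters, as did KLF4, KLF7 and KLF2 at the lower end between 1.37 and 1.76 CPM per kb. With TMZ, KLF5 passed from the 7th place (4.25 CPM per kb) to the first (70.3 CPM per kb), 38.2% of the sum, ahead of KLF9 with 44.5 CPM per kb. No neighbours overlapped in that group.

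In untreated SurvNESmut-GFP cells KLF9 led with 44.6 CPM per kb (33.9% of the sum), before KLF6 with 23.3 and KLF5 with 18 CPM per kb, and no neighbours overlapped. With TMZ, KLF6 (22.1 CPM per kb), KLF9 (21.5 CPM per kb) and KLF5 (17.6 CPM per kb) stood at the top, and KLF9 overlapped both of its neighbours. KLF2 was last in every group, with 1.39 to 2.83 CPM per kb. The sum over the 10 genes was 120 and 114 CPM per kb in untreated Surv-GFP cells and 183 and 185 with TMZ, and 133 and 130 and then 109 and 122 in SurvNESmut-GFP cells. Without KLF5 the mean sums were 113, 114, 114 and 97.8 CPM per kb in the same order. The near-equal Surv-GFP sums without KLF5 were a net of changes in both directions. KLF4 passed there from 1.64 CPM per kb untreated to 10.7 with TMZ, and KLF3, KLF7 and KLF10 were also higher. KLF9 passed from 59 to 44.5 CPM per kb, and KLF11 and KLF13 were also lower.

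**Figure D4:**
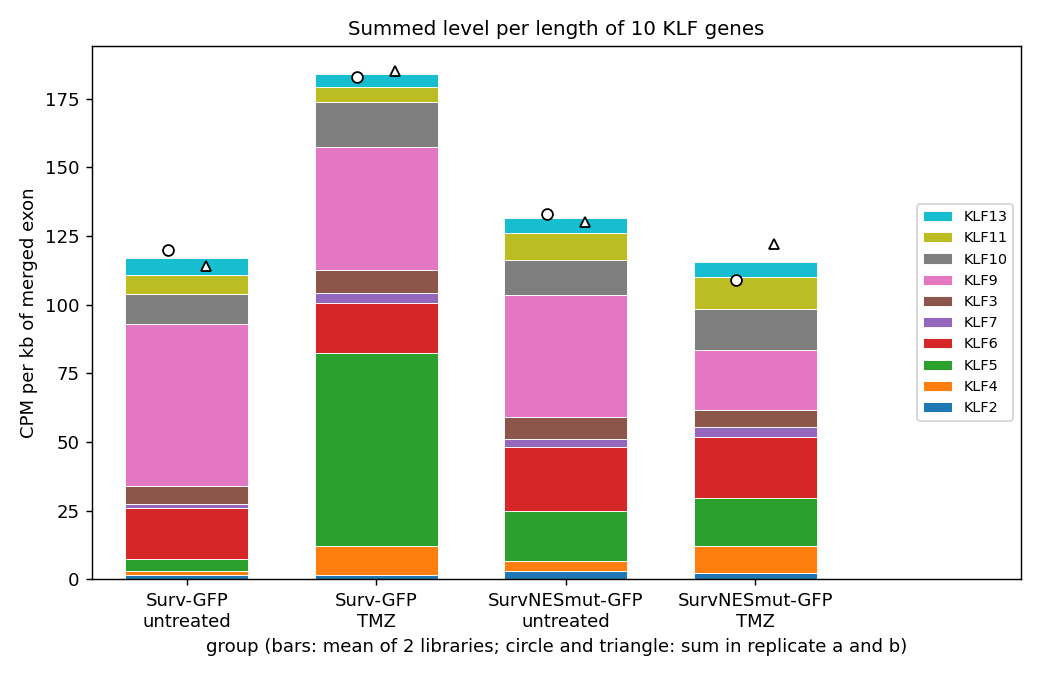
Summed level of the KLF genes in CPM per kb of merged exon (vertical axis, from 0) in each group (horizontal axis). Segments are the means of single genes, and the circle and triangle give the sum in replicates a and b. KLF5 made up 38.2% of the bar for Surv-GFP with TMZ and 3.64% of that for untreated Surv-GFP.

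The genes most like a member were searched for members whose group means spanned at least 1 on the log2 scale, by the root mean square difference of the 4 centred group means. For KLF4 these were BBC3, which encodes the apoptosis inducer PUMA, with a difference of 0.15, and RRM2B, the p53-induced ribonucleotide reductase subunit, with 0.16. BBC3 was at 3.96 and 3.81 CPM in untreated Surv-GFP cells and at 24.5 and 26.2 CPM with TMZ, and at 11 and 12.5 and then 26.1 and 27.2 CPM in SurvNESmut-GFP cells. For KLF5 the nearest were OCA2 (0.23) and ENKUR (0.24), both at most 4.12 CPM in any library. For KLF7 they were MID1 (0.04) and TBX19 (0.05), and for KLF9 LINC00473 (0.06) and PCDHA4 (0.08), a protocadherin gene that shares exons with its neighbours. For KLF11 they were CPQ (0.01) and TMEM44 (0.02). The difference was not scaled to the span, which was 4.04 for KLF5 and 2.69 for KLF4. Letters of genes with few counts lay farther apart than such differences. TBX19 had 81 and 47 counts in Surv-GFP with TMZ, and PCDHA4 had 3 and 12 in SurvNESmut-GFP with TMZ. With 4 groups many of the 14201 genes can have such a pattern, and the measure is a description of these libraries.

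Of the remaining KLF genes in the count file, KLF12, KLF15 and KLF16 had enough reads to be tested. KLF15, a metabolic regulator induced by glucocorticoids, was at 7.21 and 6.62 CPM in untreated and 20.5 and 17.4 CPM in TMZ-exposed Surv-GFP cells, and between 0.889 and 1.39 CPM in all SurvNESmut-GFP libraries. Its log2 fold change with TMZ was 1.46 ± 0.12 in Surv-GFP (edgeR adjusted p = 3.7e-08) and 0.42 ± 0.33 in SurvNESmut-GFP (adjusted p = 0.35), with a difference of -1.04 ± 0.36 (adjusted p = 0.034). That difference lost its call with DESeq2 (-1.02), and in edgeR without untreated replicate b or TMZ replicate a of Surv-GFP and without untreated replicate a or b or TMZ replicate a of SurvNESmut-GFP. KLF12, a CtBP-binding repressor like KLF3, had a mean level of 64.6 CPM untreated and 45.6 CPM with TMZ in Surv-GFP, and of 66.8 and 59.6 CPM in SurvNESmut-GFP. It fell in Surv-GFP, by 0.50 on the log2 scale (adjusted p = 1.2e-05), and had a value of -0.17 in SurvNESmut-GFP (adjusted p = 0.069), or -0.28 and past the threshold without TMZ replicate b of that clone. KLF16, a SIN3A-binding member, rose by 0.40 and 0.32 (adjusted p = 0.0022 and 0.016). In SurvNESmut-GFP its libraries were at 37.2 and 37.9 CPM untreated and at 53.2 and 40.4 CPM with TMZ. The value there was 0.11 and not called without TMZ replicate a, 0.51 without replicate b, and not called without either untreated library. Its effect did not differ between the clones at the threshold (-0.08 ± 0.14, adjusted p = 0.7). KLF8 and KLF17 had at most 3 counts in any library, and KLF1 and KLF14 had 0, which allows up to 3 counts.

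Of the related SP genes, which bind the same GC boxes, SP1 to SP5 had enough reads to be tested. With TMZ 1 rose and 2 fell in Surv-GFP, where 30.1% of all tested genes were called higher and 28.9% lower. In SurvNESmut-GFP 0 rose and 0 fell, where 18.6% of all tested genes were called higher and 19.1% lower. Nothing is read from these counts. SP1 had a TMZ effect of -0.13 in Surv-GFP (edgeR adjusted p = 0.026), not called without untreated replicate a or b or TMZ replicate a of that clone, and of 0.02 in SurvNESmut-GFP. SP2 rose by 0.38 in Surv-GFP (adjusted p = 3e-04), with a difference between the clones of -0.48 (adjusted p = 0.0017). SP3 and SP4 were not called in either clone, with values from -0.19 to 0.08. SP5 was at 3.09 and 2.04 CPM untreated and 1.5 and 1.72 CPM with TMZ in Surv-GFP, a log2 fold change of -0.68 (adjusted p = 0.032). The call was lost with DESeq2 (-0.70) and when any Surv-GFP library but untreated replicate b was left out, with -0.34 without untreated replicate a. In SurvNESmut-GFP it was at 6.29 and 6.61 and then 7.83 and 9.14 CPM, with a value of 0.39 (adjusted p = 0.059) and a difference of 1.07 (adjusted p = 0.011), which was 0.73 and not called without untreated replicate a of Surv-GFP and 0.97 and not called without its TMZ replicate a. The SurvNESmut-GFP value was 0.50 and past the threshold without its TMZ replicate a.

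Partners of KLF proteins were taken from a list of 17 cofactors, of which 7 rose and 6 fell with TMZ in Surv-GFP and 4 rose and 5 fell in SurvNESmut-GFP. Over all tested genes 30.1% were called higher and 28.9% lower in Surv-GFP and 18.6% and 19.1% in SurvNESmut-GFP, which also holds beside the counts of the next lists, and nothing particular to a list is read from its count. The median log2 fold changes of the list were -0.02 and -0.08, beside 0 over all tested genes, as for the lists that follow. FBXW7, part of the ubiquitin ligase that degrades KLF5, rose by 0.64 in Surv-GFP (edgeR adjusted p = 1e-07) and 0.56 in SurvNESmut-GFP (adjusted p = 3e-05). FHL3, a LIM protein that binds KLF3, rose by 0.73 (adjusted p = 1e-06) and 0.38 (adjusted p = 0.0042), the second not called without untreated replicate a of SurvNESmut-GFP (0.33). The acetyltransferase CREBBP rose by 0.51 in Surv-GFP (adjusted p = 9.9e-07) and had a value of 0.01 in SurvNESmut-GFP, a difference of -0.50 (adjusted p = 0.00015). FBXO32, an F-box protein of a ubiquitin ligase, fell by 1.09 (adjusted p = 9.2e-08) and by 0.34 (adjusted p = 0.0027).

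Of 20 genes in pathways known to induce KLF genes, 4 rose and 5 fell in Surv-GFP and 2 rose and 7 fell in SurvNESmut-GFP, with medians of -0.09 and -0.1. MEF2C, which drives KLF2 downstream of ERK5, was at 112 and 114 CPM in untreated SurvNESmut-GFP cells and at 20.9 and 46.5 CPM with TMZ, a log2 fold change of -1.76 ± 0.18 (edgeR adjusted p = 1.5e-06) with letters far apart. In Surv-GFP its value was -0.09 (adjusted p = 0.69). TSC22D3, a glucocorticoid receptor target, rose in both clones, by 0.54 in Surv-GFP (adjusted p = 0.00012) and 1 in SurvNESmut-GFP (adjusted p = 2.5e-05). TGFB2 fell in Surv-GFP, by 0.83 (adjusted p = 2.2e-05), and TGFB1 in SurvNESmut-GFP, by 0.79 (adjusted p = 9.1e-07). Neither TGF-beta gene was called in the other clone, although TGFB2 was, at 0.29, without TMZ replicate b of SurvNESmut-GFP, and both differences between the clones were, at 1.01 (adjusted p = 6.1e-05) and -0.76 (adjusted p = 6.8e-05).

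Of 19 genes commonly named as KLF targets 16 were tested, and 5 rose and 6 fell in Surv-GFP and 7 rose and 2 fell in SurvNESmut-GFP, with medians of -0.07 and 0.23, beside the shares of called genes given above. CDKN1A, the cell cycle inhibitor p21, was at 86.6 and 77.3 CPM in untreated Surv-GFP cells and at 908 and 975 CPM with TMZ. In SurvNESmut-GFP cells it was at 117 and 119 CPM and then at 429 and 492 CPM. Its log2 fold changes were 3.52 ± 0.07 (edgeR adjusted p = 1e-15) and 1.96 ± 0.07 (adjusted p = 4.2e-12), and the difference was -1.56 ± 0.10 (adjusted p = 5.1e-09). TXNIP, which binds thioredoxin, rose by 0.46 in Surv-GFP and by 1.15 in SurvNESmut-GFP (adjusted p = 2.6e-05 and 5.3e-09). CDKN1C, another cell cycle inhibitor, fell by 2.05 in Surv-GFP (adjusted p = 4.9e-08), and in SurvNESmut-GFP it had a value of -0.82 ± 0.36 (adjusted p = 0.083), or -1.22 and past the threshold without its TMZ replicate b. The lists and the 10 KLF genes were not compared with each other by a test.

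**Figure D5:**
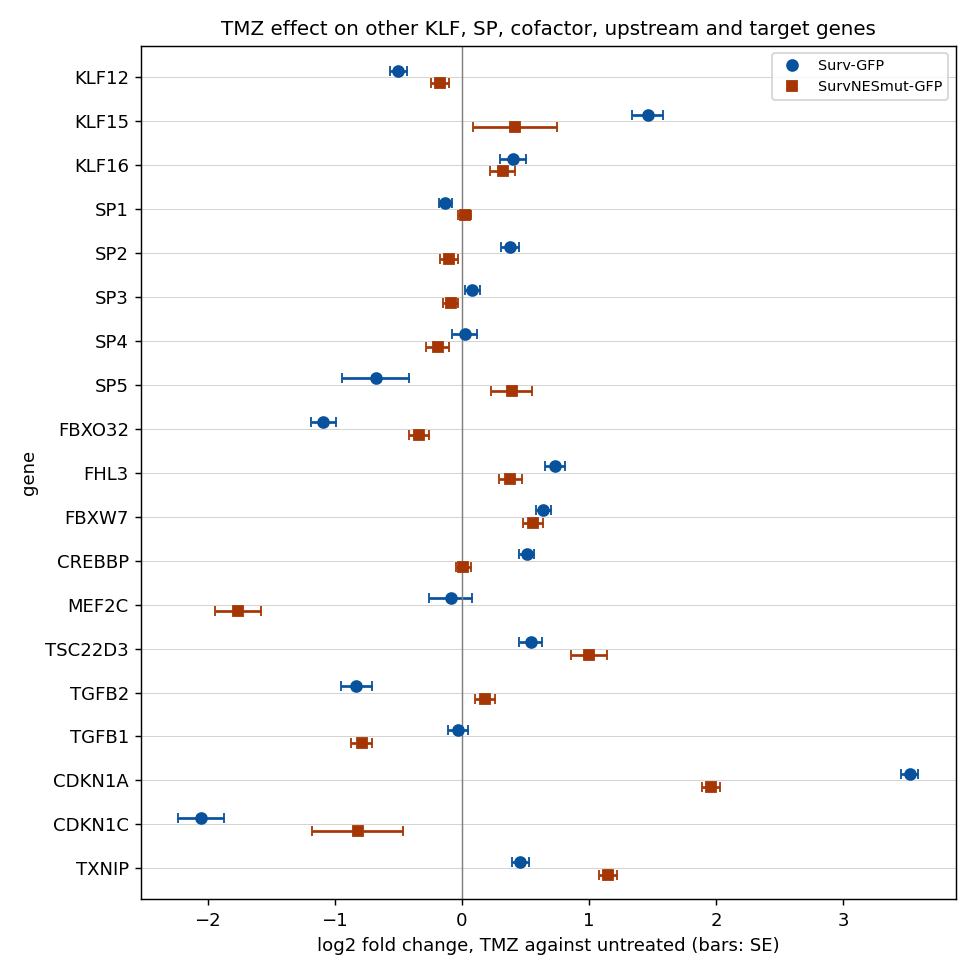
Log2 fold change of TMZ against untreated cells (horizontal axis) for other KLF, SP, cofactor, upstream and target genes (vertical axis), with circles for Surv-GFP, squares for SurvNESmut-GFP and bars for the standard error. CDKN1A had the largest rise of the genes shown in either clone, CDKN1C fell most in Surv-GFP and MEF2C most in SurvNESmut-GFP.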

How the data were processed

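The 8 libraries were assigned to 4 groups of 2 from the clone, exposure and letter in their labels. The values are raw counts of reads for 26364 gene symbols, as deposited by the authors. The submitters' processing notes name STAR 2.5.0b, Cufflinks 2.2.1 and edgeR. Sources used here do not give the counting program, annotation, genome build or strandedness. Rows naming no gene held 11.2 to 14.3% (reads in no feature) and 1.19 to 1.28% (ambiguous reads) of a library and were left out. The authors' 5 comparison tables, which hold fold changes, mean abundances and test statistics from edgeR, were not used.

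The analysis ran in R 4.3.3 (edgeR 4.0.16, limma 3.58.1). TMM scaling, edgeR's filter on low counts (14201 genes left) and a quasi-likelihood model of the 4 group means over all 8 libraries were used, with 5 contrasts and Benjamini-Hochberg adjustment over all tested genes at 0.05. TMM factors lay between 0.978 and 1.02. Depth was 15826923 to 18861603 counts. Counts carry no molecular identifiers here, so limits for counts of 0 cover counting error only. DESeq2 1.42.0 was an alternative, beside other scalings and filters, the quasi-likelihood method of edgeR 4, the letter as a term, only the groups compared, and each library left out. The fits were tested on simulated counts with the same spread for all genes and groups. The wider spread of SurvNESmut-GFP with TMZ was therefore not part of that check.

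The KLF genes, the lists and the tests were chosen with earlier results of these data known. The text names all 10 KLF genes, the measured other KLF and SP genes, at most 4 genes per cofactor, upstream and target list with the largest called TMZ effect in which no libraries overlapped, 2 similar genes for each KLF gene with a span of at least 1, and BIRC5. Lists were written from general knowledge. A few items that these rules select are not reported here. Start regions came from RefSeq (GRCh38.p14) and exon lengths from GENCODE 29, neither known to be the authors' build.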

Additional observations from a re-analysis of the deposited data

Results flagged for a closer look

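The TMZ effect differed between the clones, past an adjusted p of 0.05 over all tested genes in edgeR's test of the difference itself, for the genes given here. Values are SurvNESmut-GFP minus Surv-GFP on the log2 scale, and for the KLF genes chosen with these results known they are a description. The effect was lower in SurvNESmut-GFP for KLF5 (-4.08), KLF4 (-1.37), KLF7 (-0.95), KLF3 (-0.76), KLF9 (-0.65) and KLF10 (-0.32), and higher for KLF11 (0.54) and KLF13 (0.36). Among the other KLF and SP genes it was lower for KLF15 (-1.04) and SP2 (-0.48) and higher for SP5 (1.07) and KLF12 (0.34). Among the listed partners, inducers and targets it was lower for MEF2C (-1.67), CDKN1A (-1.56), TGFB1 (-0.76), CREBBP (-0.50) and FHL3 (-0.35). It was higher for CDKN1C (1.23), TGFB2 (1.01), FBXO32 (0.75), TXNIP (0.69) and TSC22D3 (0.46). The calls for FHL3, KLF15, TSC22D3, CDKN1C and KLF9 were lost with DESeq2, and those for KLF12 and SP5 when single libraries were left out. Direction within a clone was opposite for KLF3 and KLF11, which passed the threshold in both clones. Their calls in SurvNESmut-GFP were lost when single libraries were left out.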

How the results depend on the processing

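Deviations of replicate a from its group mean, over all tested genes, correlated between -0.0671 and 0.0832 among the groups. Counting noise of genes with few reads weakens such correlations, so whether the letters pair the libraries cannot be told from them. With the letter as a replicate block, 5 KLF genes were called higher and 3 lower with TMZ in Surv-GFP and 3 and 2 in SurvNESmut-GFP, as without it, and no count of the 10 KLF genes moved, while KLF12 (-0.17) passed the threshold in SurvNESmut-GFP. When a library was left out, KLF genes called lower with TMZ in SurvNESmut-GFP numbered 1 to 3, those lower between the untreated clones 0 to 2, and those higher between the TMZ-exposed clones 2 to 4. Listed genes called lower numbered 13 to 23 in Surv-GFP and 8 to 19 in SurvNESmut-GFP, and those with a higher effect in SurvNESmut-GFP 6 to 10. DESeq2 called 1 KLF gene lower between the untreated clones. Signs turned only near 0, apart from KLF16 between the TMZ-exposed clones, which had -0.22 (adjusted p = 0.021) without SurvNESmut-GFP TMZ replicate a. For TMZ in Surv-GFP, SP4 gave -0.01 with DESeq2's test or size factors and with no filter, 0 with library size alone, and -0.03 with a filter of 1 CPM. Leaving out a library gave ranges of -0.07 to 0.07 there for SP4, -0.16 to 0.02 for KLF2, -0.14 to 0.07 for KLF6 and -0.15 to 0.06 for TGFB1. In SurvNESmut-GFP, KLF5 gave 0 and KLF13 0.01 with library size alone, and leaving out a library gave -0.18 to 0.11 for KLF5, -0.05 to 0.01 for KLF13 and -0.06 to 0.08 for CREBBP. For the difference of TMZ effects it gave -0.06 to 1.16 for KLF3-AS1, -0.14 to 0.06 for KLF6 and -0.29 to 0.11 for KLF16, and between the TMZ-exposed clones -0.12 to 0.20 for KLF7 and -0.22 to 0.18 for KLF16. Between the untreated clones KLF12 gave -0.01 with library size alone. The cause of these shifts was not tested. With 2 libraries a group, differences of about the spread between letters cannot be resolved.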
